A study of Mus musculus with 4 samples.

Results

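Gasdermins are a family of proteins that can perforate membranes, and the genes described here are Gsdmc, Gsdmc2, Gsdmc3, Gsdmc4 and Gsdmd in the mouse colon. The 5 genes were chosen by their expression values on these same arrays, among them the heme against control differences of Gsdmc2 and Gsdmc4 in crypt cells, so their values are given as a description. A gene was measured by the mean of the probe sets that carried its symbol alone. By this rule 4 of the 5 genes had a value, each from 1 probe set, out of 19938 genes in all. Gsdmc3 had no probe set of its own.

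The study asked how dietary heme, a pigment of red meat that holds iron, affects the colon epithelium. All mice were male C57BL/6 animals, 11 weeks old, on a diet high in fat (40% of energy) and low in calcium for 14 days. The heme groups received 0.5 µmol heme per gram of diet and the control groups received none. Surface cells and crypt cells were laser-microdissected from frozen rolls of the middle 2 cm of the colon, and RNA was pooled over 3 mice for heme surface and heme crypt and over 4 mice for control surface and control crypt. Each of these 4 pools was hybridised to 1 array, so no replicate measures the spread between mice, no test was made, and no standard deviation or p-value is given. On each diet the same mice gave both surface and crypt cells. Values are log2 expression values, and a difference of 1 is a 2-fold difference. A gene was called higher or lower when its difference reached 2-fold and a minimum of 1 array of the comparison reached 5.75, the middle of all gene values, which is called the floor here.

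A gasdermin consists of an N-terminal domain that can form pores and a C-terminal domain that holds it inactive. When a protease cuts between them, the freed N-terminal part assembles into pores in the plasma membrane, through which small cytokines leave the cell and which can lead to a lytic death called pyroptosis. Gsdmd is the main substrate of the inflammatory caspases. Humans have a single GSDMC gene, whereas the mouse has several copies side by side, and in the mouse intestine the Gsdmc genes are known as epithelial genes that respond to type 2 cytokines through the transcription factor Stat6. In the RefSeq annotation all 5 genes lie on chromosome 15, where Gsdmc, Gsdmc2, Gsdmc3 and Gsdmc4 follow each other in that order among protein-coding genes. Because these copies are similar in sequence, probes for one of them could also bind RNA of another. The overlap of probes was not tested, and the separation of Gsdmc2, Gsdmc3 and Gsdmc4 is therefore uncertain.

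The markers of the dissected compartments followed the labels. All 8 surface colonocyte markers were higher in the surface than in the crypt pool, with a median of 3.67 on heme and 4.57 on the control diet. Of the crypt base and dividing cell markers, 7 of 7 above the floor were lower in surface cells on heme (median -3.20) and 8 of 8 on the control diet (median -2.81). Lgr5 on heme fell short with 32 added to the linear values before the log (-0.78). When arrays were centred on ribosomal protein genes, neither Lgr5 (-0.02) nor Axin2 (-0.93) passed on heme. Ascl2 (-1.15, below the floor then) did not on the control diet. The median of all genes was then 1.11 on heme and 1.16 on the control diet.

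Gsdmc2 and Gsdmc4 had much lower RNA levels in heme-fed than in control crypts, and Gsdmc2 was also lower in the surface cells. Gsdmc2 had 8.82 in heme surface cells and 11.18 in control surface cells, and 6.78 in heme crypt cells and 10.84 in control crypt cells. Both control pools thus lay within 0.34 of each other, both heme pools lay below them, and heme crypt was the lowest. The difference between heme and control was -2.36 in surface cells (5.12-fold lower) and -4.05 in crypt cells (16.6-fold lower). It was the 13th lowest of 10282 genes above the floor in surface cells and the lowest of 10491 in crypt cells.

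Gsdmc4 stood at 9.89 in heme surface cells against 10.65 in control surface cells, and at 6.55 in heme crypt cells against 10.07 in control crypt cells. Here heme crypt alone stood apart, and the other 3 pools spanned less than 2-fold. The difference between heme and control was -0.76 in surface cells (1.69-fold lower), which did not reach the size rule, and -3.52 in crypt cells (11.5-fold lower), next in rank after Gsdmc2 in crypt cells. With the probe sets of several symbols averaged in, the surface difference of Gsdmc4 was -1.06 and passed the rule, and that of Gsdmc2 was -1.59. Gsdmc2 and Gsdmc4 differed more from each other in surface cells, where the heme effect of Gsdmc2 minus that of Gsdmc4 was -1.60, than in crypt cells, where it was -0.53, and neither value has a replicate check.

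**Figure D1:**
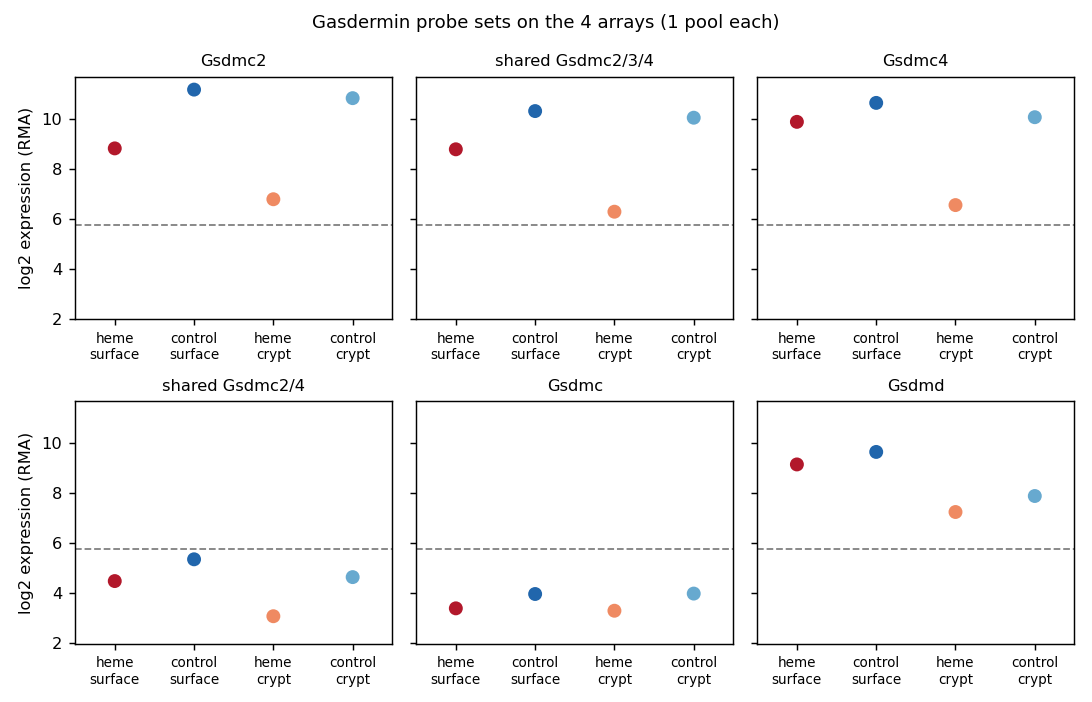
Log2 expression (vertical axes) of 6 gasdermin probe sets on the 4 arrays, 1 point per array and no error bars because each group is 1 pool; the dashed line is the floor of 5.75. Gsdmc2, Gsdmc4 and the probe set shared with Gsdmc3 were lowest in heme crypt cells, Gsdmd was lower in both crypt pools than in both surface pools, and Gsdmc and the probe set shared by Gsdmc2 and Gsdmc4 stayed below the floor.

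Gsdmc3 was represented only by a probe set that the annotation assigns jointly to Gsdmc2, Gsdmc3 and Gsdmc4. Its value was 8.79 in heme surface cells and 10.32 in control surface cells, and 6.28 in heme crypt cells and 10.05 in control crypt cells. Its heme minus control difference was -1.53 in surface and -3.77 in crypt cells, between the values of the Gsdmc2 and Gsdmc4 probe sets in both compartments. How much of it comes from Gsdmc3 RNA cannot be told apart. A further probe set, assigned jointly to Gsdmc2 and Gsdmc4, lay below the floor on all 4 arrays, at 4.48 in heme surface and 5.35 in control surface cells and at 3.07 in heme crypt and 4.64 in control crypt cells. No direction was read from it.

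Of the 5 genes, Gsdmc3 alone had an entry in the RefSeq promoter table used here. The 250 bases before its annotated start (GRCm38.p6, chr15:63878559-63878808, minus strand, printed 5′ to 3′ along the gene) are shown because Gsdmc3 shares the probe set that moved with Gsdmc2 and Gsdmc4.
Gsdmc3 upstream: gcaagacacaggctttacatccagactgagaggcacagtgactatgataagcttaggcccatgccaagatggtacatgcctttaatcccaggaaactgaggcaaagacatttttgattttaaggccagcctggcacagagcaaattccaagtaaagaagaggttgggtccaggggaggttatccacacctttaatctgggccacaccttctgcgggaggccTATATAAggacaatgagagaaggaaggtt
The capitals mark TATATAA, the letters searched for a TATA box, which begin at position -29 relative to the gene's start. These letters occurred on either strand in 3.04% of 32851 windows of the same length. Also searched on both strands were the STAT6-type site (TTC and GAA spaced by 4 bases), the STAT site with the closer spacing, the core of the antioxidant response element (TGACNNNGC), the HNF4 letters CAAAGTCCA and the CDX2 letters TTTATGG, and no match was in this window. The STAT6-type site was found in 5.85% and the antioxidant core in 10.2% of the windows. No motif searched overlapped the TATA letters in this window. A match or its lack describes this window alone.

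Gsdmc, the first gene of the row, was below the floor on every array. It had 3.39 in heme surface cells and 3.96 in control surface cells, and 3.29 in heme crypt cells and 3.98 in control crypt cells. At such values no direction was read and no fold is given.

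Gsdmd followed the compartment more than the diet. Its level was 9.16 in heme surface cells against 9.66 in control surface cells, and 7.25 in heme crypt cells against 7.89 in control crypt cells. Both surface pools lay above both crypt pools, and within each compartment heme was the lower. The heme differences, -0.50 for surface and -0.64 for crypt cells (1.42-fold and 1.56-fold lower), did not reach the size rule. With no replicate, differences of this size cannot be set against the spread between mice.

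Of the 4 gasdermin genes measured, 3 were above the floor. By the size rule, 1 of these (Gsdmc2) was lower on heme in surface cells and none was higher, where 2.01% of all genes were lower and 3.62% higher. In crypt cells 2 of 3 (Gsdmc2 and Gsdmc4) were lower and none was higher, against 1.19% of genes lower and 1.78% higher. The median difference of all genes was -0.02 in surface and 0.01 in crypt cells. Since the genes were selected on these values, the counts are no support for a heme effect on the family.

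**Figure D2:**
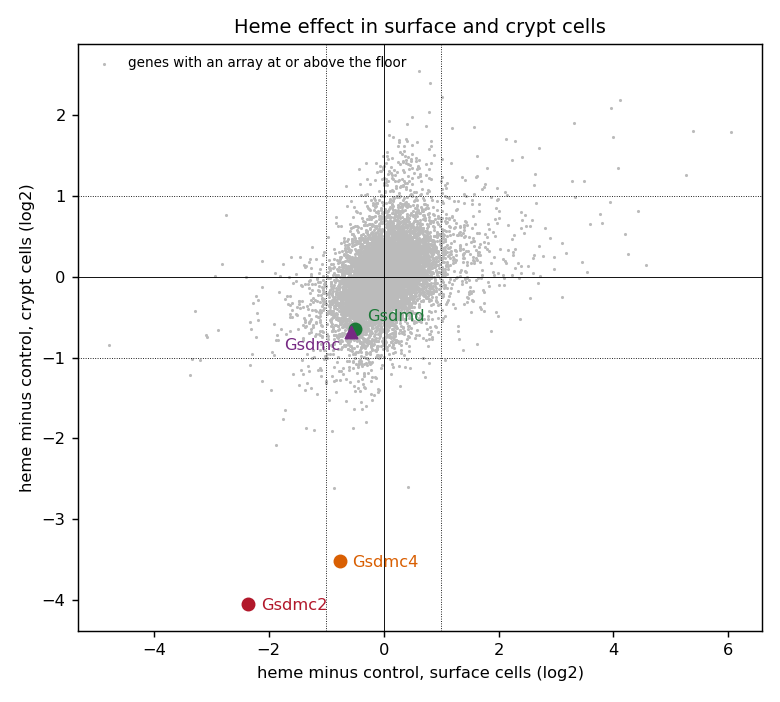
Log2 difference between heme and control in surface cells (horizontal axis) and in crypt cells (vertical axis) for each gene with an array at or above the floor (grey points); dotted lines mark 2-fold, and the triangle for Gsdmc marks a gene below the floor. Gsdmc2 and Gsdmc4 lie at -4.05 and -3.52 in crypt cells, apart from the other genes, and Gsdmd lies at -0.64.

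The surface to crypt gradient of Gsdmc2 and Gsdmc4 was steep on heme and shallow on the control diet. Surface minus crypt was 2.04 on heme (4.11-fold) and 0.34 on the control diet for Gsdmc2. For Gsdmc4 it was 3.34 on heme (10.1-fold) and 0.57 on the control diet. Gsdmd differed by 1.91 on heme (3.75-fold) and by 1.77 on the control diet (3.40-fold).

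On heme 3 of 3 gasdermin genes above the floor were higher in surface cells, where 15.3% of genes were higher and 16.5% lower, and on the control diet 1 of 3 (Gsdmd) was higher, where 12.0% were higher and 13.5% lower. The heme crypt values of Gsdmc2 and Gsdmc4 entered their choice, so the count on heme is a description. When arrays were centred on ribosomal protein genes, the median difference of all genes on the control diet moved to 1.16, and Gsdmc2 at 1.49 and Gsdmc4 at 1.72 then passed the 2-fold rule, close to that median.

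Subtracting the heme effect in crypt cells from that in surface cells gave 1.70 for Gsdmc2 and 2.76 for Gsdmc4, so both were further below control in crypt cells. It was 0.14 for Gsdmd. Gsdmc4 had the 21st highest and Gsdmc2 the 100th highest of 11147 such values. Of all genes, 3.29% were higher and 2.17% lower in this comparison, against 2 and 0 of the 3 gasdermin genes. The crypt differences on which Gsdmc2 and Gsdmc4 were chosen are part of these values. The ranks and counts are therefore no support for a difference between compartments, which was not tested, as each array is 1 pool.

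Markers of cell types also moved between the crypt pools. In heme against control crypt cells, 6 of 8 surface colonocyte markers were higher (median 1.24), with a summed linear level of 3723 in heme and 1406 in control crypt cells. One of them, Clca4a, no longer passed with 32 added before the log (0.85). Gsdmc2 and Gsdmc4 were lower on heme in the same pools. Of the 8 crypt base and dividing cell markers, the cyclin gene Ccna2 was higher (1.51) and the stem cell receptor gene Lgr5 lower (-1.07). The list median was -0.30, with a summed level of 4734 in heme and 3949.7 in control crypt cells. Lgr5 fell short with 32 added before the log (-0.88) and with centring on ribosomal protein genes (-0.86) or on all genes (-0.999). Of the markers of stroma and endothelium, 4 of 11 were lower (median -0.73, summed level 2817 in heme and 5254 in control crypt cells). These were Vim, Dcn, Lum and Cd34. With 32 added before the log Lum (-0.81) and Cd34 (-0.98) no longer passed, and with ribosomal protein centring Dcn (-0.97), Cd34 (-0.99) and Lum (-1.18, below the floor then) did not, so that Vim alone of the 4 passed under both. Of the leukocyte markers above the floor, 2 of 5 were lower (median -0.62, summed level 675 in heme and 1082 in control crypt cells), Csf1r and H2-Aa. Neither passed with 32 added before the log (-0.77 and -0.95) or with ribosomal protein centring (-0.81 and -0.88). None of 7 goblet cell markers passed the size rule (median -0.48, summed level 16132 in heme and 22899.6 in control crypt cells). In surface cells none of the stroma, endothelium and leukocyte markers passed it. The median of stroma and endothelium was -0.55 there (8 of 10 below 0, summed level 2863 in heme and 3963 in control surface cells). Of the 8 surface colonocyte markers, Tmigd1 (2.28) and Clca4a (1.02, and 0.86 with quantile normalization) were higher in heme surface cells (median 0.52). The goblet marker Spink4 was also higher there (1.56, list median -0.12). Among the leukocyte markers Cd79a and Itgam were below the floor on all 4 arrays. The part of these cell types in the gasdermin values was not tested, and in such pools fewer cells of a type and less RNA per cell cannot be told apart.

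The type 2 cytokine response was examined because it is known to drive Gsdmc genes in the mouse gut. The receptor subunit gene Il13ra1 had 9.10 in heme surface and 9.71 in control surface cells, and 8.61 in heme crypt and 9.41 in control crypt cells. Its differences of -0.61 and -0.79 stayed within 2-fold. Stat6, the transcription factor of this pathway, differed by -0.58 in surface and -0.02 in crypt cells, and the receptor gene Il4ra by 0.16 and -0.36. Of 6 genes above the floor in surface cells, Ang4, an antimicrobial ribonuclease gene, was lower (-1.27, and -0.80 with 32 added before the log) and none was higher (median -0.41, 2 above 0). The heme surface value of Ang4, 5.15, was below the floor, and the call fell short with a floor higher by 1. Retnlb, of the same list, differed by 0.54 in surface and -0.45 in crypt cells. In crypt cells none of 5 passed the rule (median -0.36). The cytokine genes Il4, Il13, Il25 and Tslp were below the floor on all 4 arrays.

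Tuft cells are chemosensory cells that start type 2 responses in the gut. In heme against control surface cells 3 of 4 tuft markers above the floor were lower (median -1.12), where 2.01% of all genes were lower. These were the kinase gene Dclk1 (-1.34), the ion channel gene Trpm5 (-1.17) and Sh2d6 (-1.07). The remaining one, Avil, differed by 0.19. With 32 added before the log, Trpm5 (-0.77) and Sh2d6 (-0.83) no longer passed. Trpm5, at 5.37 below the floor in heme surface cells, also fell short with a floor higher by 1. Sh2d6 did so with centring on ribosomal protein genes (-0.91) or on all genes (-0.97). In crypt cells 1 of 5, Rgs13, was lower (-1.17, and -0.68 with 32 added before the log), with a median of -0.61, where 1.19% of all genes were lower. The heme crypt value of Rgs13, 4.88, was below the floor. The summed level of the 6 markers was 340 in heme surface against 610.02 in control surface cells and 313 in heme crypt against 508 in control crypt cells. Pou2f3, the defining transcription factor of tuft cells, was below the floor on all 4 arrays. The part of these cells in the Gsdmc2 and Gsdmc4 values was not tested.

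Among the other gasdermins, Gsdma, Gsdma2, Gsdma3, Pjvk and Gsdme were below the floor on all 4 arrays as gene means. For Gsdme a pair of probe sets disagreed. One had 6.26 in heme surface and 6.88 in control surface cells, and 6.24 in heme crypt and 6.68 in control crypt cells, while the other stayed between 2.47 and 2.71.

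The proteases that cut gasdermins showed 1 gene past the size rule on heme. Casp4, which senses cytosolic lipopolysaccharide and cuts Gsdmd, had 6.85 in heme surface and 8.51 in control surface cells, and 6.44 in heme crypt and 6.77 in control crypt cells. It was therefore lower in heme surface cells (-1.66), as the 1 gene of 3 above the floor, with a list median of 0.20 and no gene higher. In crypt cells it differed by -0.33 and none of 3 passed (median -0.33). Casp1, the caspase of the canonical inflammasome, differed by 0.20 and -0.38, and Casp8, known to cut mouse Gsdmd and human GSDMC, by 0.32 and -0.01. The granzyme genes Gzma and Gzmb and the neutrophil protease genes Elane and Ctsg were below the floor on all arrays.

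None of the inflammasome sensor and adaptor genes passed the size rule on heme, of 10 in surface cells (median -0.53, 7 below 0) and 9 in crypt cells (median -0.26, 8 below 0). The bacterial flagellin sensor genes Naip5 (-0.92 in surface, -0.85 in crypt cells) and Naip6 (-0.83 and -0.60) had the largest differences, and as close paralogs they may share probes. By compartment, Nlrp9b, an epithelial sensor of viral RNA, was higher in surface cells by 5.12 on heme and 5.27 on the control diet. Its crypt values of 3.23 on heme and 3.82 on the control diet were below the floor, so the size is uncertain, and with 32 added before the log the differences were 3.11 and 3.64. Nlrp1b (1.63 and 1.93) and Nlrc4 (1.47 and 1.19), which signals for the Naip sensors, were also higher there. The adaptor gene Pycard was lower in surface cells on heme (-1.20) and differed by -0.62 on the control diet. With ribosomal protein centring its difference on heme was -0.09 and did not pass, but the median of all genes then was 1.11.

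Of the listed cytokine and alarmin genes, Il18 was lower in heme crypt cells (-1.07), where its value of 5.07 was below the floor. This gene had -0.64 with 32 added before the log and -0.87 with ribosomal protein centring. It differed by -0.43 in surface cells and was higher in surface than in crypt cells by 2.91 on heme and 2.26 on the control diet. This gradient ran in the same direction as that of Gsdmd. Hmgb1, a nuclear alarmin and the other gene of this list above the floor, differed by 0.84 in surface and 0.24 in crypt cells. Its gradient ran the other way, with surface minus crypt at -0.96 on heme and -1.56 on the control diet. With ribosomal protein centring the latter was -0.41, where the median of all genes was 1.16. Il1a, Il1b and Il33 were below the floor on all 4 arrays.

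Genes of membrane rupture and repair stayed within 2-fold on heme. Of 12 genes, none passed the rule in surface cells (median 0.28, 11 above 0) or in crypt cells (median 0.09, 9 above 0). Ninj1, which ruptures the membrane after pores have formed, differed by -0.05 and 0.11. The ESCRT gene Chmp4b, a repair component that removes damaged membrane, differed by 0.02 and 0.08, and Chmp4c by 0.60 and -0.02.

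Regulators of gasdermins included 1 gene past the rule. Irf1 was lower in heme surface cells (-1.13; 1 of 8 genes, list median -0.01), with 7.11 in heme and 8.25 in control surface cells. It fell short with 32 added before the log (-0.98) and with ribosomal protein centring (-0.97). Irf2, known to drive Gsdmd transcription, differed by -0.36 in surface and -0.49 in crypt cells. In crypt cells none of the 8 passed (median 0.18).

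Necroptosis, a lytic death that uses no gasdermin, had 1 gene higher and 1 lower of 6 in heme surface cells (median 0.32). The kinase gene Ripk3 was higher on heme by 1.36 in surface cells (9.37 in heme, 8.01 in control) and by 1.24 in crypt cells (7.99 in heme, 6.76 in control). Its substrate gene Mlkl, which encodes the pore former of this pathway, differed by 0.59 and 0.69. The nucleic acid sensor gene Zbp1 was lower in heme surface cells (-1.82), with 5.50 in heme surface cells, below the floor, and 7.32 in control surface cells. In crypt cells Ripk3 was the 1 gene of 5 higher and none was lower (median 0.21).

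**Figure D3:**
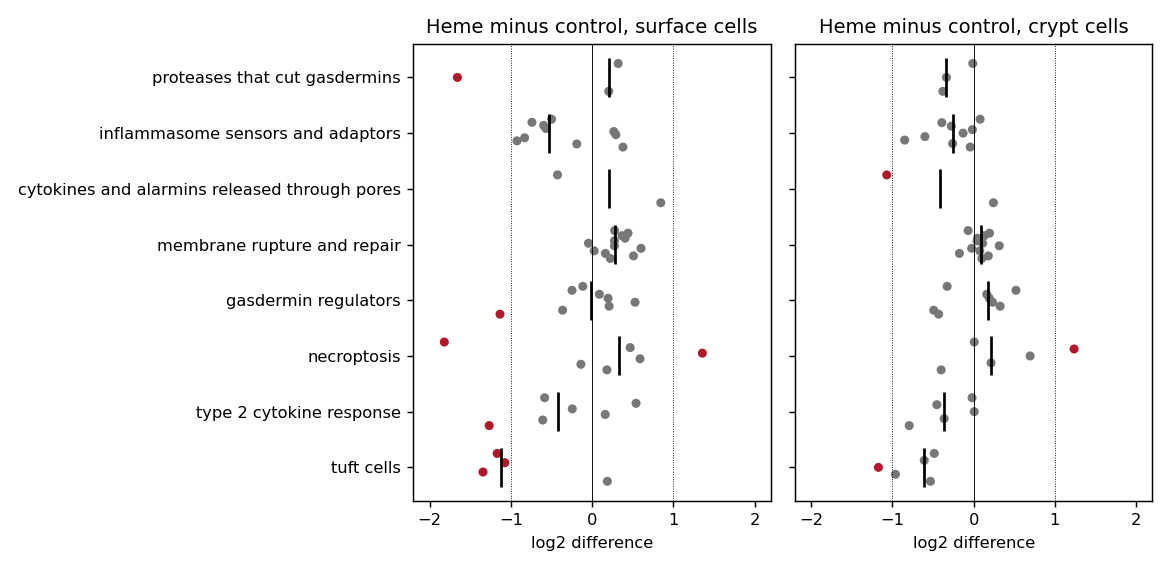
Log2 difference between heme and control (horizontal axes) in surface cells (left) and crypt cells (right) for the genes of 8 lists (rows) above the floor, 1 point per gene; red points reach 2-fold, dotted lines mark 2-fold and black bars are list medians. Of these 8 lists the tuft cell markers had the lowest median, -1.12 in surface and -0.61 in crypt cells. In crypt cells the markers of stroma and endothelium (-0.73) and of leukocytes (-0.62), not drawn here, had lower medians. No inflammasome or membrane repair gene reached 2-fold.

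Genes with the most similar values were ranked by the root mean square difference over the 4 arrays after centring each gene on its own mean, among 10673 named genes with an array at or above the floor. Gsdmc2 and Gsdmc4 differed by 0.71 on this measure, less than either did from any of these genes outside the family. The nearest to Gsdmc2 were Fbxo32 (1.00), a ubiquitin ligase subunit gene, Sycn (1.05), which encodes a zymogen granule protein, and Pamr1 (1.05). Their heme differences in crypt cells were -1.40, -1.31 and -1.40, each smaller in size than the -4.05 of Gsdmc2, and that of Pamr1, whose heme crypt value of 4.75 was below the floor, was -0.81 with 32 added before the log. The nearest to Gsdmc4 were Tph1 (0.75), the serotonin synthesis gene of enterochromaffin cells, the matrix gene Tnc (0.78) and the phosphodiesterase gene Gde1 (0.81), and the heme difference of Gde1 in crypt cells was -1.35. Tnc differed by -1.43 there, with a heme crypt value below the floor, and by -0.97 with 32 added before the log. Tph1 was below the floor in both crypt pools, at 4.19 in heme and 5.61 in control crypt cells, and no direction was read. Gsdmd had much closer company, with the cation channel gene Trpm4 (0.04), the glycosyltransferase gene Mgat4a (0.06) and the thioredoxin-binding gene Txnip (0.06). The ranking rests on 4 arrays and is a description.

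**Figure D4:**
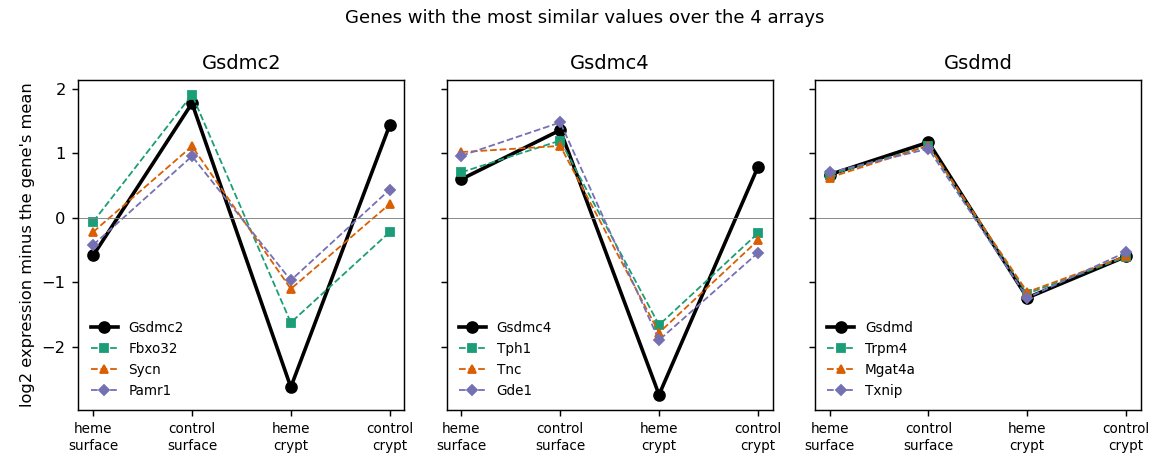
Log2 expression minus the gene's own mean (vertical axis) on the 4 arrays for Gsdmc2, Gsdmc4 and Gsdmd (black) and the 3 genes with the smallest root mean square difference to each (dashed); lines join the points of a gene to guide the eye. Trpm4, Mgat4a and Txnip overlie Gsdmd, while the genes nearest to Gsdmc2 and Gsdmc4 are less low in heme crypt cells.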

How the data were processed

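The deposited values are on a log2 scale, 1 per probe set, and RMA is the tool that the submitters' processing notes name. Its version, the arrays it was run on together and a genome build were not given in the sources used here. Per the labels' protocols, 100 ng of pooled RNA was labelled without removal of ribosomal RNA. Of 35556 probe sets, 21789 had 1 gene symbol in GEO's annotation of the array (21698 found by gene ID in the GRCm38.p6 RefSeq table, whose symbol was used), 1621 had several and 12146 had none. Genes were means of single-symbol probe sets. The calls are a size rule and not a test, because 1 array per group leaves no error estimate. No detection call was used. Heme was compared with control in each compartment, surface with crypt on each diet, and the heme effects with each other.

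The members, the 14 lists with 121 genes (6 without a value) and the rules were chosen with earlier results of these data known. The genes named are the members, up to 4 list genes past the size rule per list and comparison, other list genes where their role is described, and the 3 nearest genes of each member above the floor. The alternatives were 32 added before the log, no floor, a floor higher by 1, centring on ribosomal protein genes (53) or on all genes, quantile normalization, the highest probe set per gene, and probe sets with several symbols included. The code of the size rule was run on simulated data with planted changes larger than 2-fold. This checks the code and not how often the rule makes false calls. Python 3.11.15, numpy 2.4.6, pandas 2.3.3 and matplotlib 3.10.9 were used.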

Additional observations from a re-analysis of the deposited data

How the results depend on the processing

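The counts of gasdermin genes higher or lower in the 5 comparisons were recomputed under 8 alternatives, and 78 of 80 values stayed within 1.5 times the reported count. With ribosomal protein centring, 3 gasdermin genes in place of 1 were higher on the control diet in the surface pool, where the median of all genes became 1.16; for heme against control this centring moved that median to 0.14 in surface and 0.24 in crypt cells. With probe sets of several symbols included, 3 in place of 1 were lower on heme in surface cells, by construction, because Gsdmc3 then enters and Gsdmc4 (-1.06) takes in the shared probe sets. Of 160 differences of single members, 157 kept their side of the size rule and 3 passed it newly, and none that passed changed sign. These totals include no floor, the higher floor and the highest probe set per gene. By construction these alternatives leave each member's difference as it was, because a floor acts on calls alone and each member had 1 probe set. Their agreement is therefore no check of the differences. Over all alternatives the heme difference in crypt cells ranged from -4.12 to -3.13 for Gsdmc2 and from -3.62 to -2.95 for Gsdmc4, and in surface cells from -2.52 to -1.59 and from -1.06 to -0.60. Gsdmc, below the floor, had its surface against crypt difference on the control diet between -0.08 and 1.13. Of 138 calls of list genes and similar genes, 23 no longer passed with 32 added before the log and 27 with ribosomal protein centring, and none reversed. Ribosomal protein centring changed the genes higher and lower from 372 and 207 to 551 and 142 in surface cells, from 187 and 125 to 299 and 51 in crypt cells, from 1637 and 1763 to 6692 and 348 for surface against crypt on heme and from 1301 and 1464 to 6812 and 151 on the control diet. Centring on all genes gave 467 and 158 in surface cells and 225 and 94 in crypt cells. No paired analysis was possible because heme and control mice differ, and surface and crypt pools of the same mice give 1 pair on each diet. A fit over the 4 arrays with diet as a block was not run. Its error would be how far the surface minus crypt difference varies between the diets, which is itself described here. The genes were also chosen on these arrays. Signals near the floor limit what can be said of Gsdmc and of low values.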

Other observations

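The probe sets assigned to Gsdmcl-ps, Gsdmcl1 and Gsdmcl2 were below the floor on all 4 arrays. The probe set of Gsdmcl-ps had 4.10 in heme surface and 4.42 in control surface cells, and 3.53 in heme crypt and 4.52 in control crypt cells. A pair of probe sets shared by Gsdmcl1, Gsdmcl2 and Gsdmcl-ps was likewise below the floor on all 4 arrays.

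The nearest protein-coding genes in the RefSeq order did not share the drop of Gsdmc2 and Gsdmc4 in heme crypt cells by the size rule. They were chosen after the gasdermin values were seen. On one side Myc, the proliferation factor gene, differed by -0.74 in surface and -0.24 in crypt cells, and Lratd2 by -0.02 and 0.08, while A1bg was below the floor. On the other side, next to Gsdmc4, Cyrib differed by 0.28 and 0.08 and Asap1 by 0.22 and -0.63, while Adcy8 was below the floor. Beside Gsdmd, Zc3h3 differed by 0.12 and -0.11, Naprt by 0.06 and -0.39, Eef1d by 0.43 and 0.20 and Mafa by -0.03 and -0.08. Rhpn1 was below the floor, and Mroh6 had no value by the rule.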
